A study of Rattus norvegicus with 4 samples.

Results

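*Gimd1*, *Dipk2a*, *Stac3*, *Slc34a2* and *Scrn1* are 5 of the 16985 named genes measured by RNA sequencing in rat liver after inhalation of sevoflurane or desflurane. They were chosen from these data because they were among the genes whose expression decreased most after 6 h of anesthesia with at least 1 agent, so their decreases describe the choice and no test was applied to them. The choice had no numeric threshold. The 4 groups were wild type rats, and each agent contributed a control killed at loss of consciousness (0 h) and an animal anesthetized for 6 h, with sevoflurane at 4.5% and desflurane at 6%. Each group held 1 library, so no value has a replicate error and every difference is a difference between single libraries. Strain, sex and age of the animals are not stated in the sources that were used. Both controls had inhaled the agent briefly, and no library came from an animal without anesthetic. Control and anesthetized livers were also taken 6 h apart, so time of day and length of anesthesia cannot be told apart.

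Several of the 5 genes are better known from tissues other than the liver. *Stac3* encodes an adaptor protein of skeletal muscle that binds the voltage sensor of the muscle membrane and is needed for the coupling of excitation to contraction. *Slc34a2* encodes a sodium-dependent phosphate transporter of the small intestine and of the surfactant-producing cells of the lung, where it takes phosphate into the cell. *Scrn1* encodes secernin, a cytosolic protein first linked to secretion from mast cells. *Dipk2a* encodes a secretory pathway protein with a kinase-like domain. *Gimd1* is named for the nucleotide-binding domain that it shares with the GIMAP GTPases of lymphocytes, and little is known of its function.

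Abundance was given as TPM, in which transcript numbers are corrected for the length of the gene and the size of the library, so that levels can be compared between genes. The tables imply 3.50 Gb of aligned bases in sevoflurane 0 h and between 5.29 and 5.57 Gb in the other libraries. There, 2 TPM stand for a mean of 6.84 to 7.28 reads over each base, and in sevoflurane 0 h for 4.72. The liver origin of the libraries was checked with 10 hepatocyte genes, which were all detected with a summed TPM between 96446 and 107159. Changes are given below as differences of log2(TPM + 1), which understate the change of genes with low values, and a gene was called lower when its control TPM was above 2 and more than 2 times the TPM at 6 h. After sevoflurane 4 of the 5 genes were called lower, where 3.71% of 8270 genes were. After desflurane all 5 were called lower, where 5.55% of 8372 genes were. The median change of the 5 genes was -3.09 with sevoflurane and -2.82 with desflurane, beside 0.05 and -0.10 over the 9201 genes whose mean TPM reached 1. In bulk tissue, fewer cells of a type and less RNA per cell cannot be told apart.

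**Figure D1:**
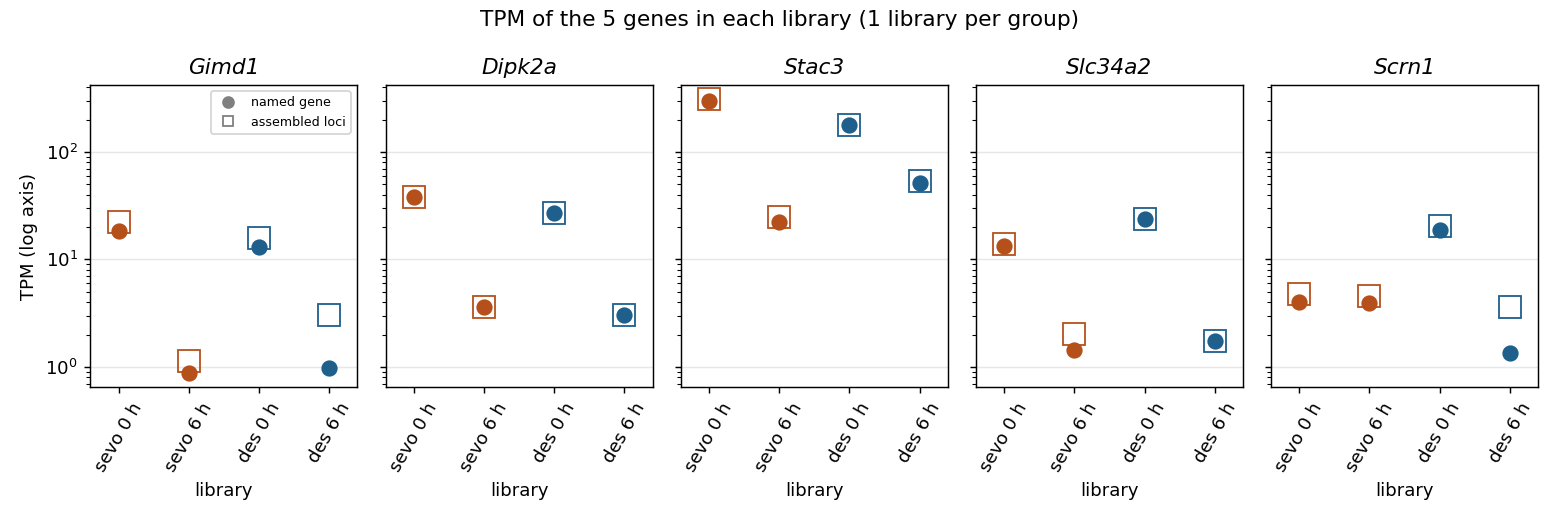
TPM of each gene (log axis) in the 4 libraries, 1 library per group, with sevoflurane in orange and desflurane in blue. Filled circles are the named gene and open squares the sum of assembled loci on the same strand. *Stac3* had the highest level in every library, and *Scrn1* was high in desflurane 0 h alone, at 18.9.

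*Stac3* was the most abundant of the 5 genes. Its TPM was 295 in sevoflurane 0 h and 22.3 in sevoflurane 6 h, and it was 179.6 in desflurane 0 h and 50.8 in desflurane 6 h. Both controls were thus above both anesthetized animals. The level after sevoflurane was 7.58% of its control and that after desflurane 28.3%, with changes of -3.66 and -1.80. Among the 16985 genes, this decrease was in position 3 with sevoflurane and in position 44 with desflurane. At 6 h *Stac3* was 2.28-fold higher with desflurane than with sevoflurane, where 3.99% of 8229 genes differed by more than 2-fold in either direction. The controls differed by 1.64-fold, with sevoflurane 0 h the higher. The high control levels placed *Stac3* in position 257 of all genes by TPM in sevoflurane 0 h and in position 441 in desflurane 0 h, and it stood in positions 2245 and 1187 at 6 h. Its mean coverage was 76.5 reads per base in the library with the lowest level, so these values rest on more sequence than those of the other 4 genes.

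Genes of skeletal muscle were at or near 0. Of 11 muscle genes, 0 reached a mean TPM of 1, their summed TPM was between 0.24 and 1.07, and *Ckm*, *Mb*, *Myh4*, *Myh7* and *Myl1* were listed at 0 in every library. The partners of *Stac3* in excitation-contraction coupling were also near 0. Of 11 listed genes 9 were measured, 0 reached a mean TPM of 1, and 5 were listed at 0 in all libraries, among them *Cacna1s*, the voltage sensor itself, and the related adaptor *Stac2*. The highest level among the partners was 0.618, for the calcium channel subunit *Cacna2d1* in sevoflurane 6 h.

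*Stac3* lies on chromosome 7 of the rn6 assembly, from 70807867 to 70815270 on the plus strand. The deposited tables also hold loci assembled from the same reads without a gene name, and these list each gene again. They are not an independent measurement. Where a locus has the coordinates and TPM of the annotated gene, it repeats the named row. This held for *Dipk2a* in sevoflurane 0 h and both desflurane libraries, and for *Slc34a2* in both desflurane libraries. The locus assembled over *Stac3* began upstream of the annotated start in all 4 libraries, at 70806550 in sevoflurane 0 h and desflurane 6 h, at 70806601 in sevoflurane 6 h and at 70806486 in desflurane 0 h. Its end was within 3 bases of the annotated one. The summed TPM of this locus was 312 and 24.6 with sevoflurane and 179.6 and 53.7 with desflurane, close to that of the named gene.

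The gene next to *Stac3* was called lower as well. *R3hdm2* ends 2.63 kb upstream of *Stac3* on the same strand, and its TPM was 14.3 and 5.51 with sevoflurane and 7.88 and 3.78 with desflurane. The 2 decreases were 2.60-fold and 2.08-fold, far smaller than those of *Stac3*. The call with desflurane was lost when libraries were scaled by the median of their ratios (1.93-fold), and that with sevoflurane when the desflurane control was used (1.43-fold). On the other side, *Ndufa4l2* had a TPM between 0.125 and 0.485, and *Shmt2*, the mitochondrial serine hydroxymethyltransferase, had a TPM of 90.8 and 60.3 with sevoflurane and 83.3 and 72.1 with desflurane, and was called with neither agent.

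*Dipk2a* and *Gimd1* were lower by similar amounts. The TPM of *Dipk2a* was 38.0 in sevoflurane 0 h and 3.58 in sevoflurane 6 h, and it was 27.1 in desflurane 0 h and 3.07 in desflurane 6 h. The TPM of *Gimd1* was 18.4 and 0.869 with sevoflurane and 12.9 and 0.975 with desflurane. For both genes the controls were above the anesthetized animals, and the levels at 6 h were alike. The changes of *Dipk2a* were -3.09 with sevoflurane and -2.79 with desflurane, and those of *Gimd1* were -3.38 and -2.82. *Dipk2a* kept 9.41% and 11.3% of its control level, and *Gimd1* kept 4.71% and 7.55%. *Gimd1* and *Dipk2a* stood in positions 4 and 5 in the order of decreases with sevoflurane and in positions 5 and 6 with desflurane. *Osgin1*, which was not among the 5 genes, followed *Dipk2a* with sevoflurane, being 8.66-fold lower where *Dipk2a* was 10.6-fold lower, and *Id4* followed it with desflurane at -2.77. The mean coverage of *Gimd1* at 6 h was 2.97 and 3.55 reads per base, the lowest among the 5 genes, so the size of its decrease rests on the least sequence.

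*Dipk2a* lies on chromosome 8 from 102140713 to 102159828 on the minus strand. The assembled locus covered exactly this interval in 3 libraries and began 111 bases further upstream in sevoflurane 6 h. In those 3 libraries its coverage and TPM also equaled those of the named gene. It therefore repeats the annotated coordinates there and does not locate a start. The RefSeq sequence around the annotated start of the gene is shown, from 250 bases before to 30 bases after it. The transcribed part is in capitals. It is taken from the GRCr8 assembly, chr8:103969432-103969711, minus strand, and the start in GRCr8 was not matched to that in rn6.
Dipk2a: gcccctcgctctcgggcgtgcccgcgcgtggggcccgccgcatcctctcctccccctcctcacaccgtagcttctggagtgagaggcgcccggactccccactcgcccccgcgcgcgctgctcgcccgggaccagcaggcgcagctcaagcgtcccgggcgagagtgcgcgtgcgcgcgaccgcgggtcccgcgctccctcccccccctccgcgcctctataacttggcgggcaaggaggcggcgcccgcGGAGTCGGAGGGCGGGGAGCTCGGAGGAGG
The window of 300 bases has a GC content of 76.7%, beside a median of 51.7% over 33469 rat windows (quartiles of 44.7% and 60.3%).

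*Gimd1* lies on chromosome 2 from 237679751 to 237714434 on the plus strand, a span of 34.7 kb. No assembled locus reached its annotated start. In sevoflurane 0 h, desflurane 0 h and desflurane 6 h the assembled locus began 19.9 kb downstream of it, at 237699648, 237699644 and 237699650, and in sevoflurane 6 h 24.7 kb downstream. The annotated first part of the gene was therefore without an assembled transcript on the gene's strand in these livers, and its promoter window is not printed. In sevoflurane 0 h a locus with a TPM of 0.759 was assembled on the other strand within the gene. At desflurane 6 h the gene was split into 2 same-strand loci, and their summed TPM of 3.07 was above the 0.975 of the named gene. The 2 loci are separate pieces of the gene, with a TPM of 1.59 and 1.48. TPM is corrected for length, so adding pieces of 1 gene overstates its level. On this sum the change with desflurane was -2.05 in place of -2.82.

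**Figure D2:**
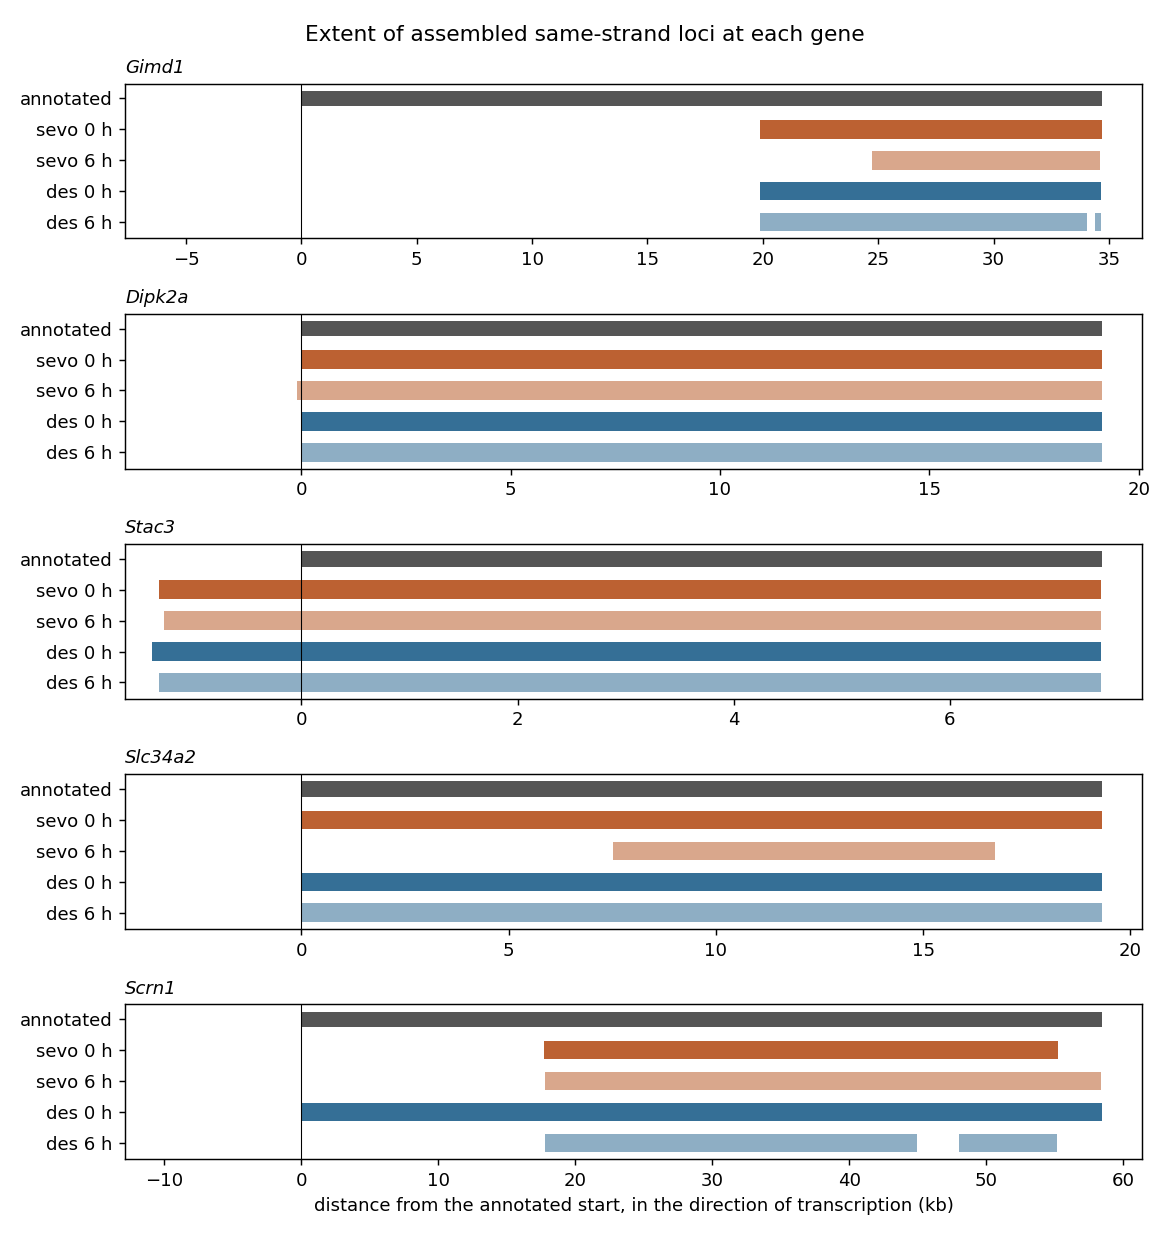
Extent of the assembled loci that overlap each gene on its own strand, as distance from the annotated start in kb, with sevoflurane in orange, desflurane in blue and 6 h libraries in the lighter shade. Grey bars are the annotated genes. Loci of *Gimd1* began 19.9 kb or more downstream of the annotated start, and those of *Stac3* began upstream of it in all 4 libraries.

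The GIMAP GTPases, which maintain lymphocytes and share a domain with *Gimd1*, were measured at low levels. All 7 listed genes were measured, and 4 reached a mean TPM of 1. The median change of those 4 was -0.45 with sevoflurane and -0.46 with desflurane. *Gimap7* was called lower with sevoflurane, from a TPM of 2.08 to 0.356, and had 1.03 and 0.825 with desflurane. *Gimap4* was called lower with desflurane, from 3.93 to 1.57, and had 1.82 and 2.35 with sevoflurane. Neither call was made with the control of the other agent, which was below the TPM minimum of 2 for both genes. The ratio to that control was 2.88-fold for *Gimap7* and 1.16-fold for *Gimap4*. *Gimap6* had 4.10 and 2.17 with sevoflurane and 1.58 and 1.64 with desflurane, and *Gimap9* had 1.98 and 1.59 with sevoflurane and 1.52 and 0.480 with desflurane. Of 7 lymphocyte genes 6 were measured, with a summed TPM of 4.44 and 1.61 with sevoflurane and 2.74 and 2.35 with desflurane. *Nkg7*, a gene of cytotoxic lymphocytes, led them in sevoflurane 0 h with 2.87, and had between 0.942 and 1.51 in the other libraries. Their part in the decrease of *Gimd1* was not tested.

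Other kinases of the secretory pathway, related to *Dipk2a*, formed a list that held 16 symbols, older names included, of which 8 were in the tables and 6 reached a mean TPM of 1. None was called in either direction with either agent. *Dipk1a*, of the same family, had a TPM of 11.0 and 14.6 with sevoflurane and 17.6 and 16.1 with desflurane. *Fam20c*, which phosphorylates secreted proteins, had 8.52 and 10.1 with sevoflurane and 11.7 and 6.83 with desflurane, and its pseudokinase partner *Fam20a* had 6.78 and 9.71, and 6.21 and 11.7. The xylose kinase *Fam20b*, the mannose kinase *Pomk* and *Gask1b* had TPM values of at most 7.37.

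The named neighbors of *Gimd1* and *Dipk2a* lie far away on at least 1 side. *Aimp1*, a scaffold of aminoacyl-tRNA synthetases, lies 13.3 kb beyond *Gimd1* and had a TPM of 14.5 and 16.5 with sevoflurane and 19.6 and 11.6 with desflurane. *Tbck*, the next gene, was called lower with desflurane, from 3.48 to 1.47, and stood at 2.91 and 2.57 with sevoflurane. Its call was lost with the sevoflurane control, at 1.98-fold. *Dkk2* and *Papss1*, 439 kb and 999 kb away on the other side, were called with neither agent. The 4 genes around *Dipk2a* lie between 144 kb and 2223 kb from it and none was called. Of these, *Paqr9* was the most abundant, with 38.6 and 49.0 with sevoflurane and 53.6 and 36.5 with desflurane, and *Slc9a9*, *Plod2* and *Plscr4* were below a TPM of 4 in every library.

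*Slc34a2* was called lower with both agents. Its TPM was 13.3 in sevoflurane 0 h and 1.45 in sevoflurane 6 h, and it was 23.5 in desflurane 0 h and 1.74 in desflurane 6 h. The levels at 6 h were alike and both below the controls. The level at 6 h was 10.8% of the control with sevoflurane and 7.40% with desflurane, with changes of -2.55 and -3.16. The decrease was in position 12 with sevoflurane and in position 2 with desflurane. The controls differed by 1.76-fold, with desflurane 0 h the higher.

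*Slc34a2* lies on chromosome 14 from 60257211 to 60276516 on the minus strand. The assembled locus covered exactly this interval in 3 libraries. In both desflurane libraries its coverage and TPM equaled those of the named gene, so there it repeats the annotated coordinates. In sevoflurane 6 h, where the mean coverage of the gene was 4.94 reads per base, the locus was confined to 9226 bases within the gene. The RefSeq sequence around the start is shown in the same way, from GRCr8, chr14:62143043-62143322, minus strand.
Slc34a2: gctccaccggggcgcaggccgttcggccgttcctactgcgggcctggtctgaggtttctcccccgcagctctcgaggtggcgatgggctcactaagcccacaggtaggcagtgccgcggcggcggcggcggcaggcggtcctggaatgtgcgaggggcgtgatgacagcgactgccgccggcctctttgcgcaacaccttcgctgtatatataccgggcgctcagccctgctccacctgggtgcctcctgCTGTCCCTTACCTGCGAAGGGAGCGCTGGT
Its window of 300 bases has a GC content of 68.3%.

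Phosphate transport was examined as a list of 10 other genes, of which 6 reached a mean TPM of 1. *Slc20a1*, a sodium-dependent phosphate transporter of another family that serves most cells, was called higher with both agents, where 5.04% of genes were with sevoflurane and 4.1% with desflurane. Its TPM was 8.33 and 23.5 with sevoflurane and 8.98 and 26.5 with desflurane, and both calls were also made under the other scalings and with the control of the other agent. The controls were alike, and the level at 6 h was 2.83-fold and 2.95-fold higher. *Slc20a2*, its close relative, had 19.9 and 27.2 with sevoflurane and 21.4 and 25.9 with desflurane and was not called. The phosphate exporter *Xpr1* had 2.42 and 3.74, and 4.04 and 3.29. The scaffold genes *Pdzk1* and *Slc9a3r1* and the receptor gene *Fgfr1* were not called either. *Slc34a1* and *Slc34a3*, the kidney members of the *Slc34a2* family, were listed at 0 in every library, as were *Kl* and *Fgf23*. *Slc34a2* was thus the only gene of its family with a level above 0.

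Markers of the tissues in which *Slc34a2* is best known were low. Of 5 lung genes 1 reached a mean TPM of 1 (*Napsa*, between 3.09 and 4.21), and *Sftpb* and *Lamp3* were listed at 0 in every library. Of 5 intestinal genes 1 did (*Fabp2*, between 2.42 and 4.11), and *Lct* and *Alpi* were listed at 0. Of 7 bile duct genes 6 were measured, with a summed TPM of 8.64 and 9.74 with sevoflurane and 8.16 and 7.97 with desflurane. *Epcam* led them, between 4.70 and 7.03. The bile duct sum was higher at 6 h than in the control with sevoflurane and slightly lower with desflurane. Only 2 of the bile duct genes reached a mean TPM of 1. The part of bile duct cells in the decrease of *Slc34a2* was not tested. The 4 genes around *Slc34a2* (*Rbpj*, *Smim20*, *Anapc4* and *Zcchc4*) lie between 187 kb and 522 kb from it, and none was called.

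*Scrn1* was high in a single library and was called lower with desflurane alone. Its TPM was 3.99 in sevoflurane 0 h, 3.92 in sevoflurane 6 h, 18.9 in desflurane 0 h and 1.36 in desflurane 6 h. Desflurane 0 h was the high library, and the sevoflurane control and the sevoflurane 6 h library were nearly equal. The level after desflurane was 7.17% of its control, a change of -3.08 in position 3 of all decreases, whereas the level after sevoflurane was 98.3% of its control, a change of -0.02 in position 5496. The controls differed by 4.74-fold, where 2.76% of 8263 genes differed by more than 2-fold in either direction. No other of the 5 genes did so, with differences between 1.40-fold and 1.76-fold. Against the sevoflurane control the decrease after desflurane was 2.94-fold in place of 13.9-fold. At 6 h *Scrn1* was 2.89-fold higher with sevoflurane than with desflurane.

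The assembled loci of *Scrn1* extended furthest in desflurane 0 h, the library with the highest coverage of the gene. Extent of a locus and depth of coverage cannot be told apart here. The gene lies on chromosome 4 from 84682278 to 84740701 on the minus strand, a span of 58.4 kb, and a locus covering exactly this interval was assembled only in desflurane 0 h. In sevoflurane 6 h and desflurane 6 h the outermost locus began 17.8 kb downstream of the annotated start, at 84722911 in both, and in sevoflurane 0 h it began at 84722960. At desflurane 6 h the gene was covered by 2 separate loci, with a TPM of 1.19 and 2.40 and a sum of 3.59. The change with desflurane on this sum was -2.23. As for *Gimd1*, adding pieces of 1 gene overstates its level. The mean coverage was 65.2 reads per base in desflurane 0 h and between 4.93 and 13.4 in the other libraries. Only in desflurane 0 h did a locus have the annotated start, and its coordinates equaled the annotated ones at both ends. It may repeat them and does not by itself locate a start. The RefSeq sequence around the start of the gene comes from GRCr8, chr4:85024144-85024423, minus strand.
Scrn1: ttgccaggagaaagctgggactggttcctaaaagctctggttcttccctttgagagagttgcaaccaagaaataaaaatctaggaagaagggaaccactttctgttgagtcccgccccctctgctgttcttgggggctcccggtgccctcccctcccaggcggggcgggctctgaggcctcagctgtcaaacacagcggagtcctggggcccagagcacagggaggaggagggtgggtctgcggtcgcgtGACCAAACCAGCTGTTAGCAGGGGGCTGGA
Its window of 300 bases has a GC content of 60.3%.

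The other secernins differed little between libraries. *Scrn2* had a TPM of 13.8 and 14.8 with sevoflurane and 15.6 and 12.5 with desflurane, and *Scrn3* had 14.1 and 17.1, and 14.3 and 13.2. In desflurane 0 h *Scrn1* was the most abundant secernin, and in the other 3 libraries it was the least abundant. Of 5 mast cell genes 1 reached a mean TPM of 1 (*Kit*, between 1.47 and 3.27), and they had a summed TPM of 2.08 and 3.10 with sevoflurane and 3.59 and 3.60 with desflurane, with *Mcpt1* listed at 0. Of 4 neuronal genes 0 reached a mean TPM of 1, and their sum was between 0.214 and 0.340. Both lists were low, and the part of these cell types in the level of *Scrn1* was not tested. Among the neighbors of *Scrn1*, *Prr15* was called higher with both agents, from 0.730 to 5.33 and from 0.552 to 3.70. *Fkbp14*, a foldase of the endoplasmic reticulum 12.9 kb away, was called higher with sevoflurane, from 1.36 to 3.13, and had 2.75 and 2.90 with desflurane. That call was not made with the desflurane control (1.14-fold). *Plekha8* was called lower with desflurane, from 4.34 to 2.09, at 2.08-fold, and not so after scaling by the median of ratios (1.93-fold) or with the sevoflurane control (1.41-fold). *Wipf3* had a TPM between 0.0490 and 0.242.

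**Figure D3:**
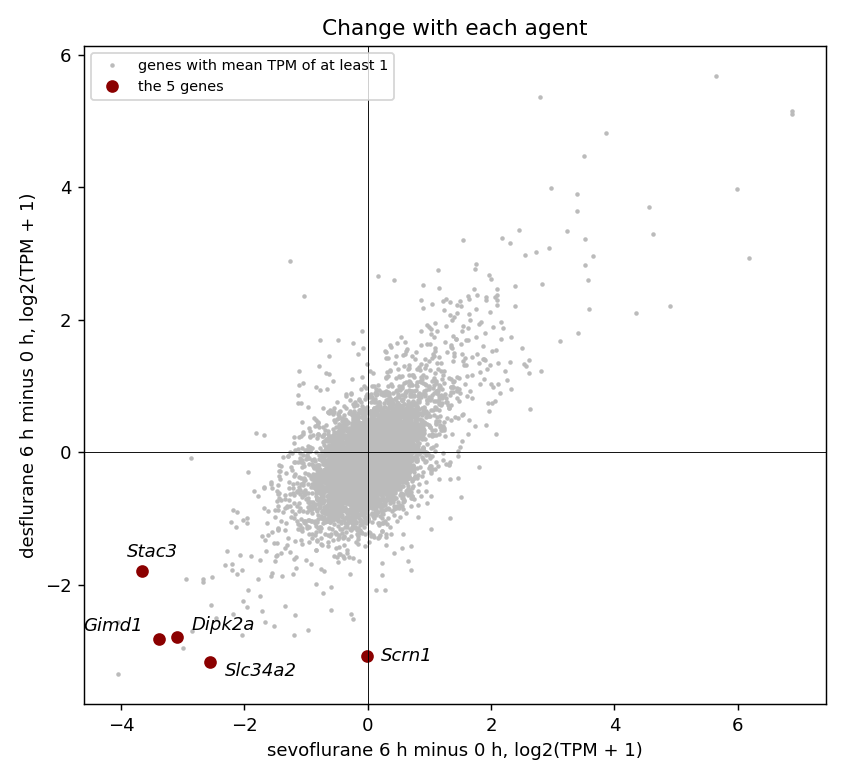
Change of log2(TPM + 1) from 0 h to 6 h with sevoflurane (x axis) and desflurane (y axis) for the 9201 genes whose mean TPM reached 1 (grey) and the 5 genes (dark red). *Gimd1*, *Dipk2a*, *Stac3* and *Slc34a2* lie low on both axes, and *Scrn1* lies at -0.02 with sevoflurane and -3.08 with desflurane.

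A decrease of more than 10-fold was rare. It occurred in 0.121% of 8270 genes with sevoflurane and in 0.119% of 8372 genes with desflurane, 10 genes in each case. *Gimd1*, *Dipk2a* and *Stac3* were among those with sevoflurane, and *Gimd1*, *Slc34a2* and *Scrn1* among those with desflurane. On the named rows and against each agent's own control, *Gimd1* was the only one of the 5 genes past this size with both agents. On the summed assembled loci *Gimd1* and *Scrn1* were 5.16-fold and 5.73-fold lower with desflurane, and the other cases stayed past 10-fold. Both genes were assembled as 2 pieces at desflurane 6 h. Adding the TPM of pieces overstates the level at 6 h, so these 2 folds are too small. With the control of the other agent, only *Gimd1* among these cases stayed past it, at 14.9-fold with sevoflurane and 18.9-fold with desflurane. A call of lower with both agents was made for 1.41% of 8557 genes and for 4 of the 5.

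The genes whose pattern over the 4 libraries was most like that of each of the 5 were sought among 9200 other genes by the Euclidean distance of their centered log2(TPM + 1) values. With 4 libraries such distances are a description, and genes share library and depth. *Dipk2a* was the gene nearest to *Gimd1*, at a distance of 0.24, and *Osgin1*, an oxidative stress-induced growth inhibitor gene, was nearest to *Dipk2a*, at 0.17, and next to *Dipk2a* in the order for *Gimd1*, at 0.36. The TPM of *Osgin1* was 91.4 and 10.5 with sevoflurane and 67.0 and 7.73 with desflurane. *Tubb2a*, a tubulin gene, was in position 3 for *Dipk2a* at 0.57, with 81.7 and 13.1, and 71.1 and 13.6. *Stac3* was followed by *Chka*, the choline kinase of phosphatidylcholine synthesis, at 0.51, with 38.6 and 4.12 with sevoflurane and 31.6 and 7.67 with desflurane. *Arntl* and *Inhba*, an inhibin and activin subunit, came next at 0.63 and 0.71. These genes shared with *Stac3* the smaller decrease with desflurane, which follows from their choice by this distance. *Inhba* had 6.03 and 0.103 with sevoflurane and 5.27 and 0.670 with desflurane.

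*Slc34a2* lay nearest to the fatty acid omega-hydroxylases *Cyp4a3* and *Cyp4a2*, at 0.65 and 0.67. *Cyp4a3* had a TPM of 503 and 91.0 with sevoflurane and 966 and 170.2 with desflurane, and *Cyp4a2* had 558 and 76.9, and 1075 and 165. These are closely related genes whose shared reads may have been divided between them, so each value is uncertain. Like *Slc34a2*, both had the higher control with desflurane, which the choice by distance favors. Next came *Irf1*, an interferon-induced transcription factor, at 0.76, with 19.4 and 4.24, and 26.0 and 4.36. *Scrn1* was nearest to the neutrophil chemokine *Cxcl1*, at 0.57, which had 0.652 and 0.365 with sevoflurane and 4.98 and 0.0952 with desflurane. The TPM of *Cxcl1* was thus below 1 outside desflurane 0 h. Its decrease with desflurane was not called with the sevoflurane control, which was below the TPM minimum of 2, although the ratio was 6.85-fold. *Edar* and *Xiap*, the receptor of ectodysplasin and an inhibitor of caspases, followed at 0.91 and 0.98. *Edar* had 3.10 and 0.793, and 6.86 and 0.159, and *Xiap* had 26.6 and 11.1, and 47.2 and 7.74. Seen from *Scrn1*, *Slc34a2* was the nearest of the other 4, in position 661 of all genes.

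**Figure D4:**
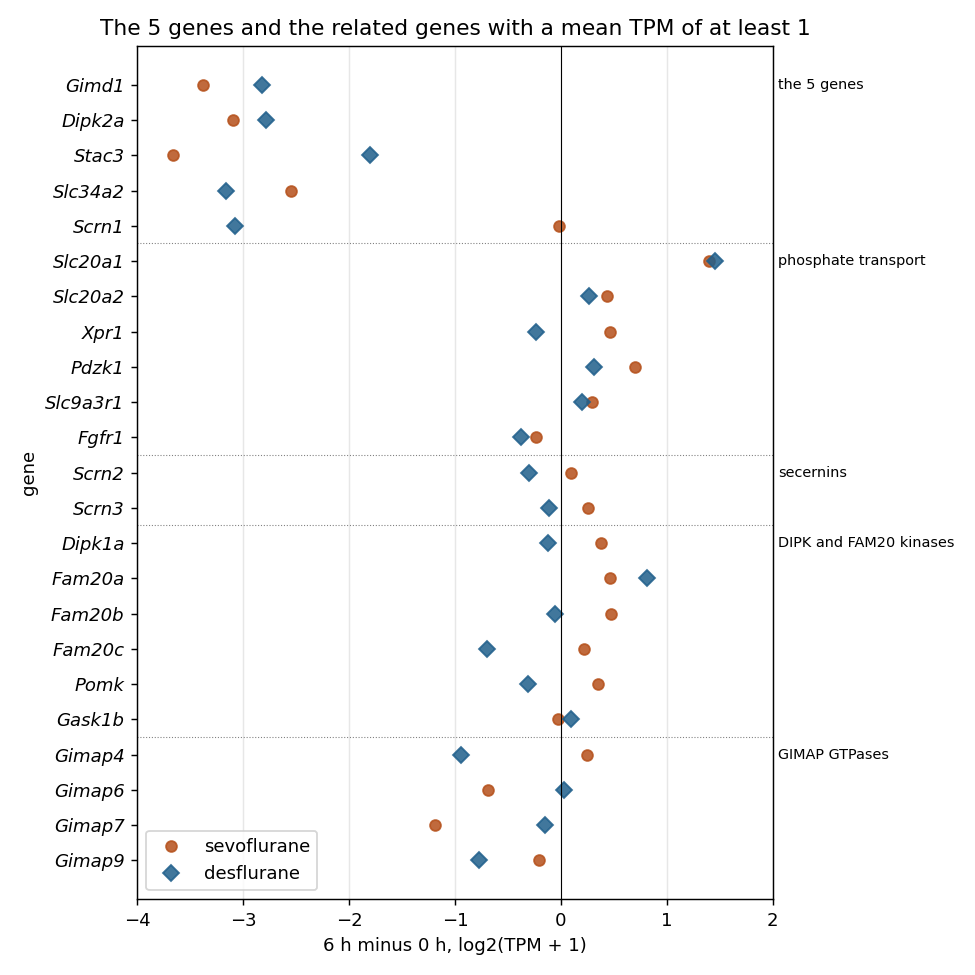
Change of log2(TPM + 1) from 0 h to 6 h with sevoflurane (circles) and desflurane (diamonds), 1 library pair each, for the 5 genes and for related genes whose mean TPM reached 1. Related genes lie between -1.18 and 1.46, with *Slc20a1* the highest with both agents.

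Of all 46 related symbols, 36 were measured, and 1 was called lower and 1 higher with each agent. Of the 20 flanking genes, 1 was called lower and 2 higher with sevoflurane, and 3 were called lower and 1 higher with desflurane. Over all genes tested, 3.71% were called lower and 5.04% higher with sevoflurane, and 5.55% and 4.1% with desflurane. The related symbols include genes listed at 0, which could not be called.

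The time of day at harvest differed along with the anesthesia. *Arntl*, which encodes the clock activator BMAL, had a TPM of 22.6 and 0.426 with sevoflurane and 17.6 and 2.14 with desflurane. *Dbp*, a clock output gene, had 0.400 and 87.9, and 1.92 and 44.8. The part of the time of day in the decreases of the 5 genes was not tested.

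The promoter windows of the 5 genes were searched on both strands for sequences that clock, nuclear receptor and basal transcription factors are known to bind. The E-box CACGTG was in 0 of the 5 windows and in 6.42% of 33469 rat windows. The D-box forms TTATGTAA and TTACGTAA were in 0 of 5, and in 0.893% and 0.120% of all windows. The nuclear receptor core site AGGTCA was in those of *Gimd1* and *Stac3* and in 16.2% of all windows, and the glucocorticoid receptor core site AGAACA was in those of *Gimd1* and *Scrn1* and in 20.7%. The TATA box form TATAAA was in 0 of 5 and in 14.2%, and variants of it were not searched. The windows of *Gimd1* and *Stac3* have a GC content of 42.3% and 54.0%, and no assembled locus began at the annotated start of either gene. A match describes the letters of the window, and its absence says nothing about a factor.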

How the data were processed

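RNA sequencing libraries of rat liver (4 groups, 1 library each) were analyzed from the gene tables that the authors deposited. The submitters' processing notes name HISAT2, SAMtools, StringTie and the rn6 build. Their versions, parameters and annotation are not stated in the sources that were used. The TPM column deposited by the authors was handled as a score, because assembled loci take up the whole total by themselves and named genes are listed in addition to it. Above a TPM of 2, between 99.8% and 99.9% of named genes were overlapped by an assembled locus on the same strand, so that the same reads are listed again. The deposited FPKM values differ from TPM by a constant factor in each library. The coverage values, as deposited, count reads over each base on average. Their quotient with FPKM stayed within 1% of 1 value in 97.1% to 97.4% of named rows and gave the aligned bases. Without read counts, counting intervals could not be given.

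Rows of at most 200 bp were left out, rows of 1 symbol were summed, and 14 symbols not listed in every library were dropped. A call needed a TPM above 2 in the higher library and a ratio above 2. No statistical test was run, because each group held 1 library and the genes were chosen from the same contrasts. The 3 genes nearest in pattern to each gene were named, of which 1 is not reported here, and the 2 nearest named genes on each side were taken as neighbors. Promoter windows (250 bases before to 50 after the start) came from RefSeq on GRCr8, where all 5 genes were found. The genes, lists and rules were chosen with earlier results of these data known. Alternatives were another TPM minimum, ratio, pseudocount, scaling, control and choice of row, and, added after seeing the data, the assembled loci. The calculations were tested on simulated data. Python 3.11.15 with pandas 2.3.3 and numpy 2.4.6 was used.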

Additional observations from a re-analysis of the deposited data

How the results depend on the processing

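The number of the 5 genes called lower, 4 with sevoflurane and 5 with desflurane, was the same under every alternative tried except the control of the other agent, with which it was 5 for both. Over all genes, the number called lower was 307 with sevoflurane and 465 with desflurane. It became 195 and 271 with a TPM minimum of 5, 1353 and 1665 with no minimum, and 118 and 142 with a ratio above 3, since these settings move the boundary of the call itself. With a pseudocount of 5 the median change of the 5 genes was -2.00 with sevoflurane and -1.91 with desflurane, and with a pseudocount of 0.1 it was -3.60 with desflurane, since the pseudocount sets how far low values are drawn together. Over the 7 alternatives all 70 single values stayed negative, and many could not have done otherwise. A pseudocount cannot change the sign, and each gene had 1 row per library, so the choice of row could not change any value. The value of *Scrn1* with sevoflurane was near 0 from the outset, at -0.02. For *Dipk2a* and *Slc34a2* with desflurane the assembled loci repeat the named rows, so that alternative could not differ. With the control of the other agent, a value shifts by exactly the difference between the controls of that gene, and the change of *Scrn1* became -2.02 with sevoflurane and -1.08 with desflurane. Under the other 6 alternatives, 9 of 60 values moved by more than that difference. Scaling by the median of ratios moved the median of all genes from 0.05 and -0.10 to 0.00 and -0.01. No paired analysis was possible because each group held 1 library and no result came from a test. Low depth limits *Gimd1* at 6 h most.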

Other observations

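Some assembled loci near the 5 genes had no counterpart in the other libraries. In sevoflurane 6 h a locus of 217 bases without a strand, with a TPM of 2.07, was assembled upstream of *Slc34a2*, from 60277423 to 60277639 on chromosome 14 of rn6. In the same library a locus of 1642 bases with a TPM of 1.17 lay upstream of *Scrn1* on the other strand, from 84743690 to 84745331 on chromosome 4. In desflurane 6 h a locus of 215 bases without a strand, with a TPM of 1.57, lay inside *Gimd1*, 6.85 kb from its annotated start. In sevoflurane 0 h and sevoflurane 6 h, loci of 233 and 264 bases without a strand lay beyond the annotated end of *Scrn1*, with a TPM of 2.02 and 1.88.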
